A study of Rattus norvegicus with 32 samples.

Results

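The core circadian clock genes were measured in liver sinusoidal endothelial cells (LSECs), the fenestrated endothelium of the hepatic sinusoid, as part of a study of chronic liver disease in rats. The members were 10 genes chosen by symbol, of 32623 genes in the count tables. They were the activators Arntl (also named Bmal1) and Clock, the repressors Per1, Per2, Per3, Cry1 and Cry2, the nuclear receptors Nr1d1 and Nr1d2 (REV-ERB alpha and beta), and the output factor Dbp. Each symbol matched 1 gene, and all 10 were tested in all 7 comparisons. The main experiment held 22 LSEC libraries of male Wistar Han rats. The healthy group had 6 libraries of untreated rats. The acute injury group had 5 libraries of rats that inhaled carbon tetrachloride (CCl4), a hepatotoxin, for 2 weeks, and the fibrosis group had 5 libraries of rats exposed for 6 weeks. The cirrhosis group had 6 libraries. Its sample labels say only that the rats received CCl4, and the series description gives 12 to 14 weeks. Phenobarbital was added to the drinking water in the CCl4 model, and LSECs were isolated some days after the last dose. A separate experiment with thioacetamide (TAA), another hepatotoxin given by intraperitoneal injection, held 10 libraries, 5 labelled control and 5 labelled TAA control. The series description names healthy and TAA-cirrhotic Sprague-Dawley rats for these 10 libraries, whereas their strain label reads Wistar Han. The sources used here do not settle which of both groups received TAA, so the groups are named as labelled and a direction is only that between the labels.

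In mammals, ARNTL and CLOCK bind together to E-box elements and activate the Per, Cry, Nr1d1, Nr1d2 and Dbp genes. PER and CRY proteins then inhibit ARNTL and CLOCK, and the REV-ERB proteins repress Arntl, so that the messenger RNA of Arntl and that of its targets peak at opposite times of the day. In liver most of these genes swing strongly over the day, but not all to the same degree. For those that do, the hour of tissue collection sets much of their level. Per1 is also induced quickly by cyclic AMP and by glucocorticoids. Animals of the study were kept on a controlled light and dark cycle. The hour of LSEC isolation is not given in the sources used here, so a difference of group and a difference of hour cannot be told apart for any gene described.

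The promoters of 3 members are shown, because they hold matches to motifs of different clock factors. Sequences are those of RefSeq for the rat build GRCr8, 250 bases before to 50 bases after the annotated start, 5′ to 3′ on the strand of the gene, and were found for 9 of the 10 members in 11 entries. Capitals mark matches on either strand to the E-box CACGTG, the E-prime box CACGTT, the D-box (TTATGTAA or TTACGTAA, bound by DBP and NFIL3), the cyclic AMP response element TGACGTCA, and the core of the REV-ERB and ROR element (TAGGTCA or TGGGTCA). None of the matches shown overlaps another.
Arntl, chr1:176766078-176766377, plus strand: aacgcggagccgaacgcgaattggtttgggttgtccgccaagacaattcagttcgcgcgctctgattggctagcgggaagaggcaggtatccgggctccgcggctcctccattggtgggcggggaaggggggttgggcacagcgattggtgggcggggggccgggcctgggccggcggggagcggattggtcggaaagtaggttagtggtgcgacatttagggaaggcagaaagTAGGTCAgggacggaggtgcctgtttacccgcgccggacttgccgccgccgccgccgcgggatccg
Per2, chr9:99496944-99497243, minus strand: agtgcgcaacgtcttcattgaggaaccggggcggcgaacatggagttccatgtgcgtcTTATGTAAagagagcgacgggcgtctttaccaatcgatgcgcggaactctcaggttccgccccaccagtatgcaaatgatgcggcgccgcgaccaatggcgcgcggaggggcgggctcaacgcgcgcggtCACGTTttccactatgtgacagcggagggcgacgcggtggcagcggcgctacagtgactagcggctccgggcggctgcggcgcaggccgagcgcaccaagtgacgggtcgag
Nr1d1 first entry, chr10:84231763-84232062, minus strand: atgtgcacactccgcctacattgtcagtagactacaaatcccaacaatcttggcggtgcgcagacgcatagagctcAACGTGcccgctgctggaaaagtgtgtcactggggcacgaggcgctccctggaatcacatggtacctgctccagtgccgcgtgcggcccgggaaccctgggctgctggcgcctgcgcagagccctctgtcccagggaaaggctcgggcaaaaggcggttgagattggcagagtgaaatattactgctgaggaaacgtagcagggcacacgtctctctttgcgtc
Nr1d1 second entry, chr10:84229405-84229704, minus strand: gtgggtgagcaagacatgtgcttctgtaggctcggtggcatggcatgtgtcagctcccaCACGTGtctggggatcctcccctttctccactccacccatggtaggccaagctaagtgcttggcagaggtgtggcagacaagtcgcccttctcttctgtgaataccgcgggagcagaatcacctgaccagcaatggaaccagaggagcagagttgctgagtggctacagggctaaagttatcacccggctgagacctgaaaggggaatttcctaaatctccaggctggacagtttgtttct
The Arntl promoter held TAGGTCA, beginning at base -16 counted from the start, and no other motif of the list. The Per2 promoter held the D-box TTATGTAA at base -192 and the E-prime box at base -62. Of the 2 entries for Nr1d1, the first held an E-prime box on the opposite strand at base -174 and the second an E-box at base -191. Cry2 held an E-prime box on the opposite strand at base -212. The entries for Clock, Per1, Per3, Nr1d2 and Dbp held none of these letters. Of the 11 entries of members, 1 held the E-box, 3 the E-prime box, 1 a D-box, none the cyclic AMP element and 1 the REV-ERB and ROR core. Among all 33469 rat promoters of this length, 6.42% held the E-box, 4.83% the E-prime box, 1.01% a D-box, 1.83% the cyclic AMP element and 6.6% the REV-ERB and ROR core. A match is a description of the sequence and not evidence of binding in these cells.

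Libraries held 25646531 to 46464289 expected counts. Levels below are CPM, counts of a gene relative to the total of its library, scaled by the trimmed mean of M-values (TMM) within each experiment, so levels are not compared between the experiments. A gene was called when its limma-voom adjusted p was under 0.05 and its fold change above 1.5. The study describes its libraries as independent LSEC isolations, and p-values set the difference of group means against the spread between these. The libraries labelled TAA control 14 and 15 differed little, with a chi-square of 3.05 per degree of freedom where no other pair of a group was under 25.2, and were kept as 2 libraries. Counting them as 1 changed none of the calls on the 10 members. The label LSEC was checked with 9 endothelial markers. Their summed level was 14590 to 27310 CPM in healthy, 3385 to 4030 in acute, 2347 to 3295 in fibrosis and 14060 to 17850 CPM in cirrhosis libraries. Of these 9 genes, 7 were lower in acute injury and 8 in fibrosis, and none was higher. Of all genes tested, 37.9% and 34.9% were lower in these comparisons. In cirrhosis 3 of the 9 were lower and 1 was higher, beside 24.7% and 27.1% of all genes. The scavenger receptor gene Stab2 had a median of 3532 CPM in healthy and 114 CPM in acute LSECs. The medians of the endothelial cadherin gene Cdh5 were 1382 and 1522 CPM. Hepatocyte markers summed to 1289 to 27580 CPM in healthy and 146 to 931 CPM in acute libraries. Macrophage markers had a median sum of 1930 CPM in healthy, 197 in acute, 73.1 in fibrosis and 1180 CPM in cirrhosis libraries, with 7 of 8 genes lower in acute injury and 8 of 8 in fibrosis. The median sum of stellate cell markers was 403 CPM in healthy and 1666 CPM in acute libraries. In acute libraries Reln alone had a median of 1654 CPM, and 5 of the 7 genes tested were lower. In cirrhosis the median sum was 1365 CPM, with 6 of 8 genes higher and none lower, where 27.1% of all genes were higher. The part of these differences in the values of the clock genes was not tested, and fewer cells of a type and less RNA per cell cannot be told apart in bulk libraries.

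Compared with healthy LSECs, Clock, Per3 and Nr1d2 were higher and Per1 was lower at each of the 3 stages of CCl4 disease. Per1 fell 10.4-fold in acute injury, 9.17-fold in fibrosis and 2.49-fold in cirrhosis. In acute injury 8 of the 10 members were called, 4 higher and 4 lower, where 73.4% of all genes tested were called, 35.5% higher and 37.9% lower. In fibrosis 5 members were called, 4 higher and 1 lower, where 70.2% of all genes were called, 35.3% higher and 34.9% lower. In cirrhosis 7 members were called, 4 higher and 3 lower, against 51.8% of all genes, 27.1% higher and 24.7% lower. The libraries of both groups did not overlap for 4 members in acute injury, 3 in fibrosis and 0 in cirrhosis, and for 60.0%, 58.7% and 27.2% of all genes. Calls were thus common over the whole transcriptome, and the counts of members alone do not set them apart. The median log2 fold change of the members was 0.020, 0.23 and 0.14, beside -0.086, -0.031 and 0.070 over all genes tested. These 3 comparisons share the same healthy libraries. Without TMM, on library size alone, the median of all genes shifted up by 0.41, 0.40 and 0.35 on the log2 scale. The share of all calls that were higher then rose from 50.3% to 60.9% in fibrosis and from 52.2% to 71.3% in cirrhosis. No called member changed direction.

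**Figure D1:**
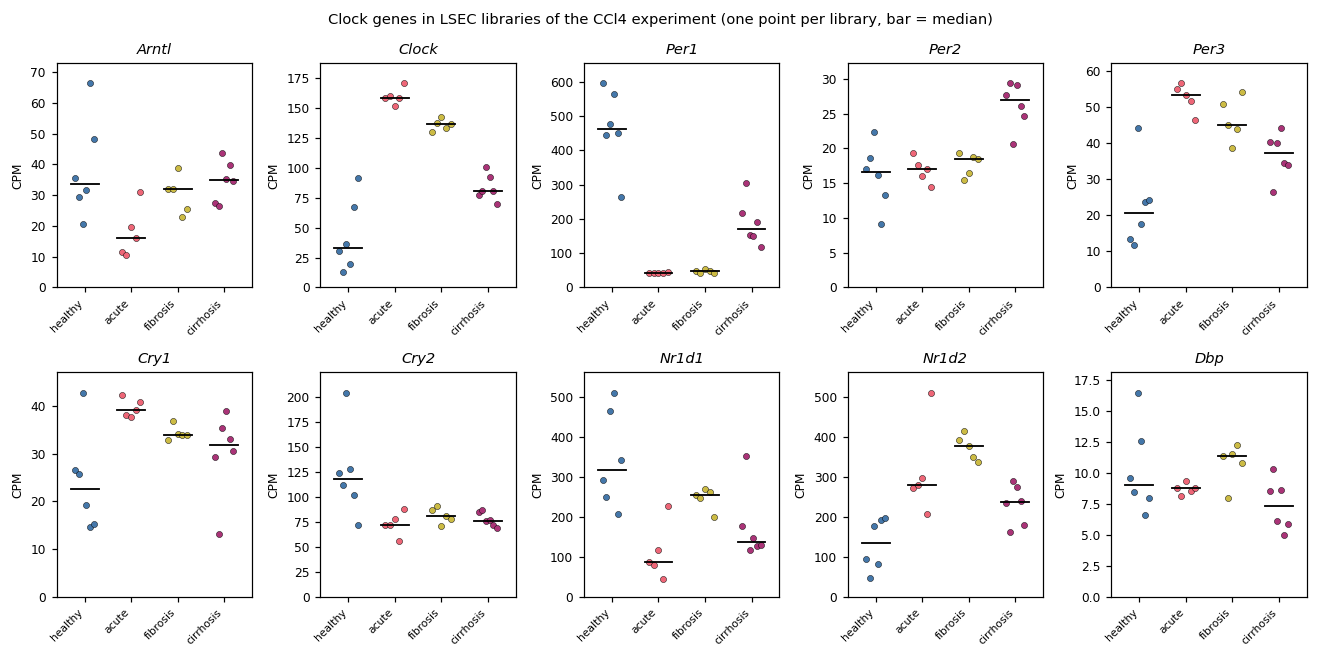
Level of each clock gene (y axis, CPM from 0) in every library of the healthy, acute, fibrosis and cirrhosis groups (x axis), with 1 point per library and a bar at the group median. Per1 lies at 41.4 to 53.1 CPM in all acute and fibrosis libraries and at 264 CPM or above in healthy ones, while Clock is highest in acute libraries.

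The activators moved apart. Clock was at 159, 160, 151, 158 and 170 CPM in acute LSECs and at 130, 137, 142, 133 and 137 CPM in fibrosis. Healthy libraries had a lowest level of 12.8, a median of 33.3 and a highest of 91.7 CPM, and cirrhosis libraries lay between 69.6 and 100.5 CPM with a median of 80.8. Every acute and fibrosis library was thus above every other library of the experiment, and cirrhosis overlapped with healthy. The log2 fold change of Clock against healthy was 2.23 ± 0.41 (SE) in acute injury (limma-voom adjusted p = 0.000322), 2.03 ± 0.41 in fibrosis (adjusted p = 0.000752) and 1.26 ± 0.38 in cirrhosis (adjusted p = 0.0122). From fibrosis to cirrhosis it fell by 0.72 (limma-voom adjusted p = 1.37e-05). The spread within the healthy group was wide, 7.18-fold from the lowest to the highest library.

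Arntl, the partner of Clock, was at 11.4, 10.4, 19.6, 16.1 and 31.2 CPM in acute LSECs. Healthy libraries ranged from 20.8 to 66.3 CPM with a median of 33.6, fibrosis libraries from 23.0 to 38.8 CPM, and cirrhosis libraries from 26.4 to 43.7 CPM. The acute group was lowest, but its replicate 8 lay within the range of each other group. Arntl fell by 1.13 ± 0.34 on the log2 scale in acute injury (limma-voom adjusted p = 0.00843), and on library size alone the difference was -0.70 (adjusted p = 0.0838). It was not called in fibrosis (-0.22, 95% confidence interval -0.80 to 0.36) or cirrhosis (-0.08, -0.59 to 0.43). Against acute injury, Arntl was higher by 1.08 in cirrhosis (limma-voom adjusted p = 0.00123). In fibrosis the difference from acute injury was 0.96 (adjusted p = 0.0284). That call was lost without acute replicates 1, 2 or 4 or fibrosis replicates 12, 13 or 15, with values from 0.79 to 0.95, under edgeR's quasi-likelihood test (0.85, adjusted p = 0.0603) and in 1 fit over the 4 CCl4 groups (0.87, limma-voom adjusted p = 0.0749).

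The Period genes, which encode the PER repressors, did not move together. Per1 was at 42.9, 41.5, 42.4, 41.4 and 44.3 CPM in acute LSECs and at 48.4, 42.7, 53.1, 48.7 and 43.0 CPM in fibrosis. Its lowest, median and highest levels were 264, 463 and 595 CPM in healthy and 119, 172 and 306 CPM in cirrhosis libraries. Acute and fibrosis libraries were below all others, and cirrhosis overlapped with healthy only through healthy replicate 6 and cirrhosis replicate 2. The log2 fold change of Per1 against healthy was -3.38 ± 0.19 in acute injury (limma-voom adjusted p = 2.03e-08), -3.20 ± 0.19 in fibrosis (adjusted p = 4.33e-08) and -1.32 ± 0.25 in cirrhosis (adjusted p = 0.00104). From fibrosis to cirrhosis it rose by 1.94 ± 0.20 (limma-voom adjusted p = 2.09e-06). No alternative setting and no library left out ended a call on Per1.

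Per2 was at 9.12 to 22.3 CPM in healthy, 14.5 to 19.3 in acute, 15.5 to 19.3 in fibrosis and 20.6 to 29.3 CPM in cirrhosis libraries. It was not called in acute injury (0.16, 95% confidence interval -0.30 to 0.62) or fibrosis (0.26, -0.20 to 0.72), although on library size alone the value in fibrosis was 0.65 (limma-voom adjusted p = 0.0105), a call. Per2 was higher in cirrhosis by 0.77 ± 0.21 (limma-voom adjusted p = 0.00687). Cirrhosis libraries lay above all acute and fibrosis libraries. The difference from acute injury was 0.64 (limma-voom adjusted p = 0.00027), and it was under the fold threshold without acute replicate 8 (0.57), with sample quality weights (0.56) and on library size alone (0.54). Per3 had a median of 20.6 CPM in healthy LSECs, where replicate 3 reached 44.4 CPM and the others 11.9 to 24.3. It was at 46.4 to 56.7 CPM in acute, 38.7 to 54.3 in fibrosis and 26.4 to 44.2 CPM in cirrhosis. Per3 rose by 1.40 ± 0.26, 1.25 ± 0.27 and 0.84 ± 0.27 against healthy (limma-voom adjusted p = 0.000383, 0.00126 and 0.0164).

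The Cryptochrome genes, whose proteins act with PER, moved in opposite directions. Cry1 was at 37.8 to 42.3 CPM in acute and 32.9 to 37.0 CPM in fibrosis, beside 14.7 to 42.8 CPM in healthy libraries. Cry1 rose by 0.86 ± 0.24 in acute injury (limma-voom adjusted p = 0.0058) and by 0.69 ± 0.24 in fibrosis (adjusted p = 0.0214). The call in fibrosis was lost without healthy replicate 5 (0.55) or healthy replicate 6 (0.52), and under edgeR (0.58, adjusted p = 0.0527). In cirrhosis Cry1 was not called (0.36, 95% confidence interval -0.30 to 1.03), but on library size alone it was (0.70, limma-voom adjusted p = 0.0448). Cry2 ranged from 72.0 to 204 CPM in healthy, 55.7 to 87.4 in acute, 70.3 to 91.0 in fibrosis and 69.0 to 86.9 CPM in cirrhosis, so that the groups overlapped. It fell by 0.68 ± 0.23 in acute injury (limma-voom adjusted p = 0.0162) and by 0.60 ± 0.21 in cirrhosis (adjusted p = 0.0276). The acute call was lost without healthy replicate 3 (-0.47), healthy replicate 4 (-0.58) or acute replicate 4 (-0.56), and with no low-count filter (-0.56). In cirrhosis the call was lost without any of healthy replicates 1, 3 and 4 and cirrhosis replicates 5 and 6, with values between -0.58 and -0.44, and also with no low-count filter (-0.57) and with the size factors of DESeq2 (-0.585). On library size alone neither call on Cry2 held (-0.26 and -0.25). In fibrosis Cry2 was not called (-0.47, adjusted p = 0.0647) but was without healthy replicate 6 (-0.66, limma-voom adjusted p = 0.00298).

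**Figure D2:**
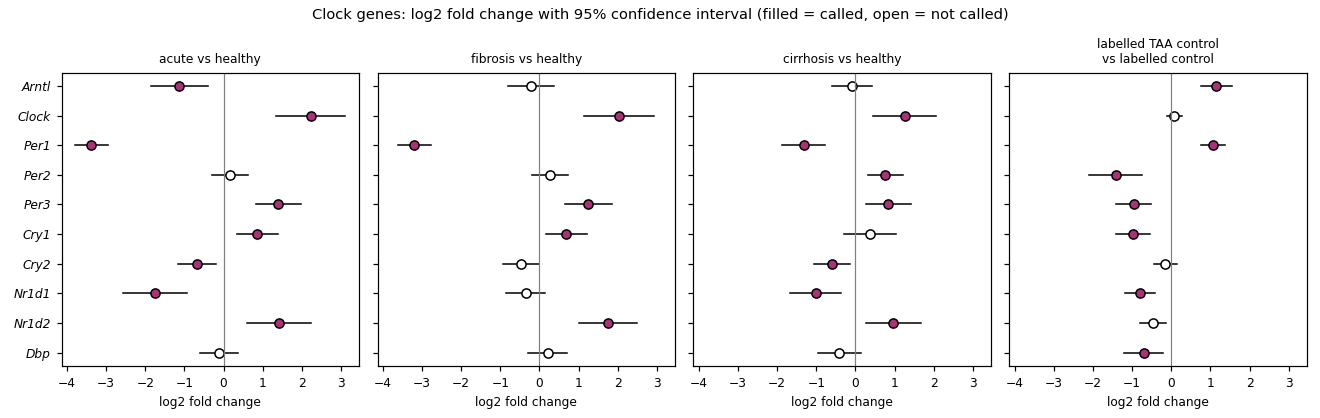
Log2 fold change (x axis) of each clock gene (y axis) in the 3 comparisons with healthy LSECs and in the TAA experiment, from limma-voom. Lines are 95% confidence intervals, filled points were called and open points were not. Per1 has the most negative value in the 3 CCl4 comparisons, -3.38 in acute injury, and is above 0 in the TAA experiment.

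The REV-ERB genes, which encode the repressors of Arntl, also parted. Nr1d1 was at 87.3, 78.0, 117, 44.1 and 227 CPM in acute LSECs and at 254, 248, 269, 261 and 199 CPM in fibrosis. Healthy libraries had a lowest, median and highest level of 207, 318 and 511 CPM, and cirrhosis libraries 116, 137 and 353 CPM. Acute replicate 8 and cirrhosis replicate 2 were the libraries of their groups that reached the healthy range. Nr1d1 fell by 1.75 ± 0.37 in acute injury (limma-voom adjusted p = 0.000992) and by 1.02 ± 0.30 in cirrhosis (adjusted p = 0.0113), the latter being -0.67 (adjusted p = 0.0577) on library size alone. It was not called in fibrosis (-0.35, 95% confidence interval -0.85 to 0.14) and was higher there than in acute injury by 1.44 ± 0.34 (limma-voom adjusted p = 0.0169). The fall from fibrosis to cirrhosis, -0.61 (limma-voom adjusted p = 0.0373), was close to both thresholds. It was lost without fibrosis replicates 12, 13, 15 or 16 or cirrhosis replicates 3, 4, 5 or 6, with values between -0.62 and -0.51, and under edgeR (-0.50, adjusted p = 0.103) and DESeq2 (-0.47, adjusted p = 0.108). With no low-count filter (-0.58, limma-voom adjusted p = 0.0539) and in 1 fit over the 4 CCl4 groups (-0.61, adjusted p = 0.109) it was not called either.

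Nr1d2 was at 272, 280, 296, 207 and 511 CPM in acute LSECs and at 393, 414, 376, 350 and 336 CPM in fibrosis. Healthy libraries lay between 46.5 and 197 CPM with a median of 134, and cirrhosis libraries between 161 and 290 CPM with a median of 237. Every acute and fibrosis library was above every healthy library. Nr1d2 rose by 1.41 ± 0.38, 1.76 ± 0.34 and 0.97 ± 0.33 against healthy (limma-voom adjusted p = 0.00435, 0.000521 and 0.0216), the last call being lost without healthy replicate 4 (0.87, adjusted p = 0.051). From fibrosis to cirrhosis Nr1d2 fell by 0.73 (limma-voom adjusted p = 0.000694). Without acute replicate 8, which held its highest level, Nr1d2 was called higher in fibrosis than in acute injury (0.59, limma-voom adjusted p = 0.00478), whereas with it the difference was 0.39 (adjusted p = 0.173).

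Dbp, a transcription factor that carries clock timing to output genes, had the narrowest range of group means among the members, 1.46-fold from cirrhosis to fibrosis. It was at 6.58 to 16.5 CPM in healthy, 8.14 to 9.33 in acute, 7.99 to 12.3 in fibrosis and 5.0 to 10.4 CPM in cirrhosis libraries. Dbp was not called against healthy at any stage (-0.12, 0.21 and -0.41), with a 95% confidence interval of -0.60 to 0.37 in acute injury. On library size alone the value in fibrosis was 0.59 (limma-voom adjusted p = 0.0221), a call. With sample quality weights the value in cirrhosis was -0.67 (adjusted p = 0.0278), also a call.

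Between the stages of CCl4 disease, fewer members differed. From acute injury to fibrosis 2 of 10 were called, Arntl and Nr1d1, both higher, where 11.0% of all genes were called, 10.2% higher and 0.732% lower. The count was 1 to 3 when libraries were left out in turn. From fibrosis to cirrhosis 4 members were called, Per1 higher and Clock, Nr1d1 and Nr1d2 lower, against 63.8% of all genes, 34.3% higher and 29.5% lower. Between acute injury and cirrhosis 4 members were called, Arntl, Per1 and Per2 higher and Clock lower in cirrhosis, against 69.3% of all genes, 37.5% higher and 31.8% lower. Nr1d1, at 0.75 (limma-voom adjusted p = 0.0924), was not called higher in cirrhosis than in acute injury, but was in 1 fit over the 4 CCl4 groups (0.75, adjusted p = 0.0447), with sample quality weights (0.70, adjusted p = 0.023), with the replicate block (1.23, adjusted p = 0.0123) and without acute replicate 8 (1.05, adjusted p = 0.0108). Per3 was called lower there on library size alone (-0.64) and without acute replicate 8 (-0.60) or cirrhosis replicate 4 (-0.59). From fibrosis to cirrhosis, Per2 (0.56) and Dbp (-0.57) lay just under the fold threshold. Per2 was called with DESeq2, with its size factors, with no low-count filter and without fibrosis replicate 12 or cirrhosis replicate 3, at 0.59 to 0.64. Dbp was called with sample quality weights, on library size alone and without fibrosis replicate 13 or cirrhosis replicates 1 or 2, at -0.68 to -0.60. Groups did not overlap for 2, 4 and 4 members in these comparisons, and for 17.2%, 63.3% and 65.9% of all genes. In the order of levels over the 4 groups, Clock went from acute to fibrosis to cirrhosis to healthy, with no call between the first 2 and calls at both later steps. The order of Per1 was healthy, cirrhosis, fibrosis and acute, with calls at the first 2 steps and none at the last.

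In the TAA experiment, 7 of the 10 members were called, where 27.6% of all genes tested were called, 12.7% higher and 14.9% lower. Arntl and Per1 were higher in the group labelled TAA control, and Per2, Per3, Cry1, Nr1d1 and Dbp were lower. For each of these 7 genes the libraries of both groups did not overlap, which held for 35.4% of all genes tested. The median log2 fold change of the members was -0.59, beside 0.026 over all genes. The other members, Clock, Cry2 and Nr1d2, were not called. Hepatocyte markers, with 6 of 8 lower, had a median sum of 1183 CPM in the group labelled TAA control and 3302 CPM in the other group. Stellate cell markers, 6 of 8 lower, summed to medians of 386 and 2429 CPM. Of these, the collagen gene Col3a1 alone had medians of 163 and 1519 CPM, whereas those of Lrat were 93.5 and 115.9 CPM. The 6 proliferation genes were all lower. Endothelial markers summed to 23700 to 30780 CPM and 19980 to 24640 CPM. The part of these cells in the clock gene values was not tested.

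**Figure D3:**
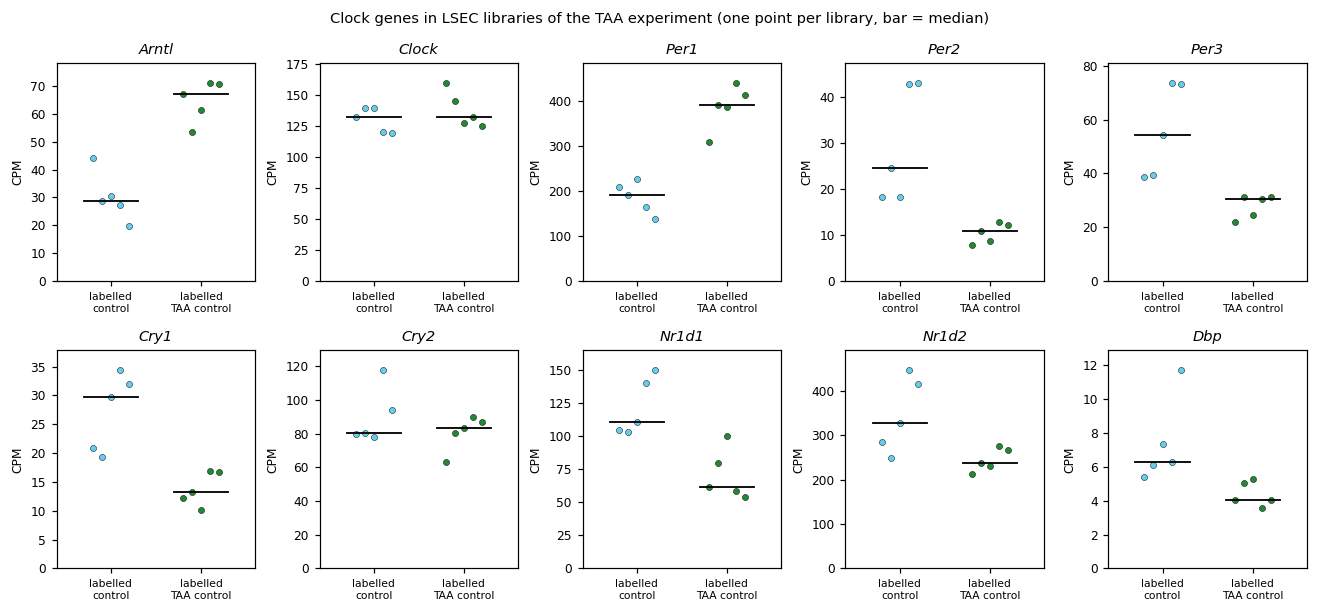
Level of each clock gene (y axis, CPM from 0) in the 5 libraries labelled control and the 5 labelled TAA control (x axis), with 1 point per library and a bar at the group median. The groups do not overlap for Arntl, Per1, Per2, Per3, Cry1, Nr1d1 and Dbp. Clock, at 120 to 140 and 125 to 160 CPM, overlaps.

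Arntl, with the REV-ERB core in its promoter, was at 66.9, 53.6, 61.2, 71.0 and 70.5 CPM in the group labelled TAA control. In the group labelled control it was at 44.2, 28.8, 30.5, 27.3 and 19.6 CPM. The highest library labelled control was below the lowest of the other group. Arntl was higher by 1.15 ± 0.18 on the log2 scale (limma-voom adjusted p = 0.000442). Per1 was at 309, 392, 389, 441 and 415 CPM beside 209, 192, 228, 166 and 139 CPM, again with no overlap, and was higher by 1.07 ± 0.14 (adjusted p = 0.000191).

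Per2, with an E-prime box and a D-box in its promoter, was at 7.81, 10.9, 8.66, 12.9 and 12.3 CPM in the group labelled TAA control and at 18.2, 24.6, 18.3, 42.8 and 43.1 CPM in the group labelled control. The latter fell into 3 lower and 2 higher libraries, replicates 4 and 5. Per2 fell by 1.42 ± 0.30 (limma-voom adjusted p = 0.00286). Per3 was at 22.1 to 31.2 CPM and 38.5 to 73.6 CPM, and fell by 0.96 ± 0.21 (adjusted p = 0.00293). Cry1 was at 10.1 to 16.9 CPM and 19.4 to 34.4 CPM, and fell by 0.98 ± 0.20 (limma-voom adjusted p = 0.00224). For Per3 and Cry1 too, replicates 4 and 5 were the highest libraries labelled control. Cry2, which also holds an E-prime box, was not called (-0.15, 95% confidence interval -0.44 to 0.14), nor was Clock (0.08, -0.11 to 0.27).

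Nr1d1, with an E-box or E-prime box in each promoter entry, was at 61.6, 80.0, 100.1, 58.5 and 54.0 CPM in the group labelled TAA control and at 105, 103, 110, 140 and 150 CPM in the group labelled control. The highest library of the first group, at 100.1 CPM, was just below the lowest of the second. Nr1d1 fell by 0.80 ± 0.18 (limma-voom adjusted p = 0.00353). For Nr1d2 the difference was -0.46, with a 95% confidence interval of -0.80 to -0.13 (limma-voom adjusted p = 0.0272), under the fold threshold. Dbp was at 4.04, 5.04, 5.3, 3.6 and 4.07 CPM beside 5.43, 6.1, 7.37, 6.3 and 11.7 CPM, and fell by 0.71 ± 0.22 (limma-voom adjusted p = 0.0223). That call was lost without the library labelled control 5 (-0.51), TAA control 10 (-0.68, adjusted p = 0.0503) or TAA control 14 (-0.64, adjusted p = 0.052). Per1, Per3 and Dbp were called although their promoter entries held none of the motifs. A link between motifs and calls was not tested.

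In differences between 2 members within a library, the scaling of the library cancels apart from the 0.5 added to each CPM value, which lowers the difference from a gene of low level such as Dbp. They are given as log2(CPM + 0.5) and compared only between libraries, since CPM is not corrected for gene length. No test was run on them. Arntl minus Per2 was 2.24 to 3.02 in the group labelled TAA control and -1.12 to 1.26 in the group labelled control. Arntl minus Nr1d1 was -0.71 to 0.38 and -2.90 to -1.23, and Arntl minus Dbp was 3.29 to 4.13 and 0.72 to 2.91. In all 3 differences the groups were apart. Within the group labelled control, replicate 1 had the highest Arntl and the lowest Per2, and replicate 5 the lowest Arntl and the highest Per2, Nr1d1 and Dbp.

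Healthy libraries also spread along these differences. Arntl minus Per2 ran from -0.10 in replicate 3 to 2.80 in replicate 5, and Arntl minus Dbp from 0.32 to 3.24 in the same libraries. Replicate 3 held the lowest Arntl, 20.8 CPM, and the highest Per2, Per3, Cry1, Cry2 and Dbp of the healthy group. Replicate 5 held the highest Arntl, 66.3 CPM, and the lowest Per2, Cry1, Nr1d1 and Dbp. Hepatocyte markers summed to 3431 CPM in replicate 3 and 1289 CPM in replicate 5, the lowest sums of the healthy group. The spread of Arntl minus Per2 was smaller in fibrosis (0.28 to 1.21) and cirrhosis (-0.15 to 1.07), and acute libraries ran from -0.74 to 1.08. This did not hold alike for Arntl minus Nr1d1. Its standard deviation was 0.98 in healthy, 0.62 in acute, 0.27 in fibrosis and 0.85 in cirrhosis libraries.

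**Figure D4:**
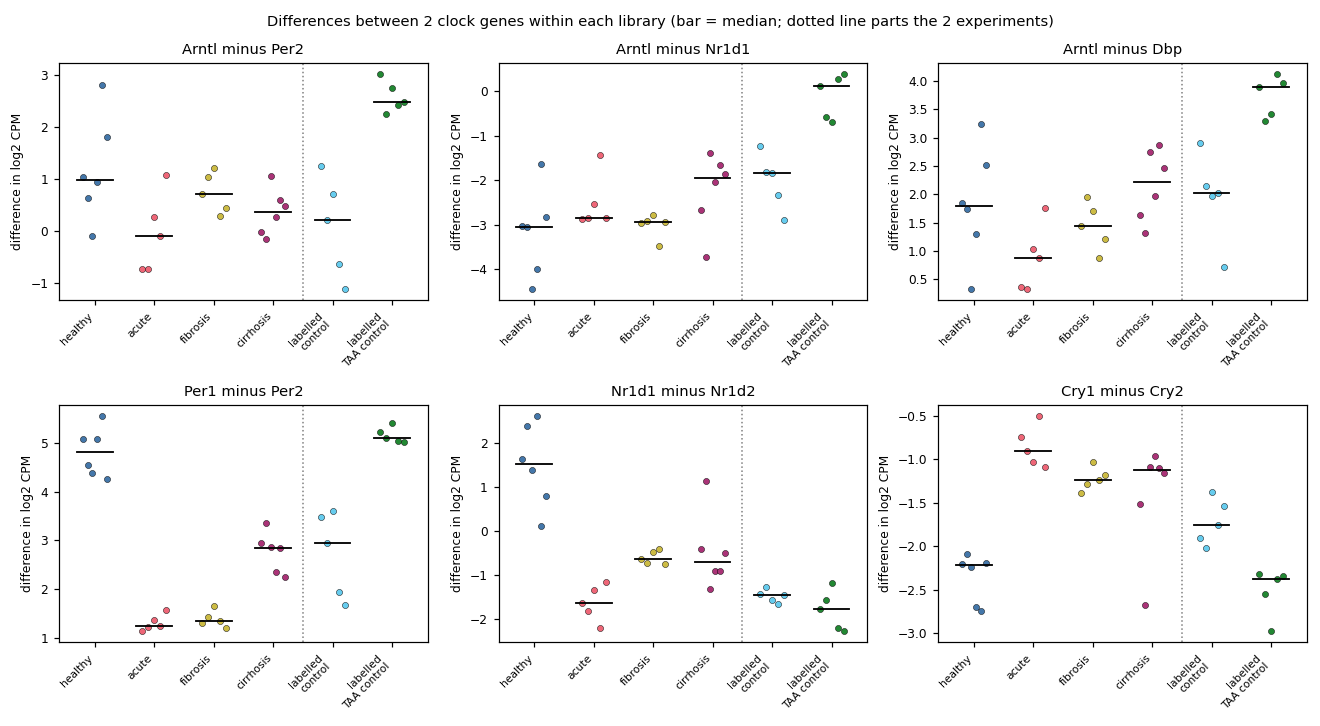
Difference in log2 CPM between 2 clock genes (y axis) in every library by group (x axis), with 1 point per library, a bar at the median and a dotted line between the experiments. The group labelled TAA control lies above the group labelled control for Arntl minus Per2, Nr1d1 or Dbp. Per1 minus Per2 is 1.13 to 1.66 in acute and fibrosis libraries and at least 4.26 in healthy ones.

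The paralogs changed relative to each other. Nr1d1 minus Nr1d2 was 0.11 to 2.63 in healthy, -2.22 to -1.17 in acute and -0.75 to -0.42 in fibrosis libraries, which did not overlap. Cirrhosis libraries were between -1.32 and -0.40 except replicate 2 at 1.13. Per1 minus Per2 was 4.26 to 5.55 in healthy, 1.13 to 1.58 in acute, 1.19 to 1.66 in fibrosis and 2.24 to 3.36 in cirrhosis. In the TAA experiment it was 5.02 to 5.41 in the group labelled TAA control and 1.68 to 3.61 in the other. Cry1 minus Cry2 was -2.75 to -2.09 in healthy and -1.09 to -0.50 in acute libraries. RSEM divides reads that fit several genes, so that values of near-identical copies would be less certain.

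Of 20 further genes of the clock machinery, 18 were tested in acute injury, and 8 were higher and 6 lower. Bhlhe40, an E-box repressor, fell by 4.84 on the log2 scale, from 457 to 927 CPM in healthy to 15.9 to 33.1 CPM in acute libraries. Npas2, which can replace CLOCK, fell by 4.59, but it was low, at 0.82 to 8.59 CPM in healthy and 0.028 to 0.58 CPM in acute libraries. Nfil3, a D-box repressor, fell by 2.36. Among 7 kinase and ubiquitin ligase genes that set PER and CRY stability, 5 were higher and 1 was lower. Btrc, which encodes a ligase subunit for PER, rose by 2.18, whereas Fbxl21 fell by 2.70. In fibrosis 9 of 18 were higher and 6 lower, and in cirrhosis 5 of 19 were higher and 2 lower, with Bhlhe40 not called (-0.15, limma-voom adjusted p = 0.526). In the TAA experiment 3 of 16 were higher and 2 lower. Npas2 fell by 1.82 and Bhlhe40 by 0.95, and Rora, an activator of Arntl, was higher by 1.37. These counts stood beside 73.4%, 70.2%, 51.8% and 27.6% of all genes called.

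From acute injury to fibrosis, 5 of 18 partner genes were higher and none was lower, where 10.2% of all genes were higher and 0.732% lower, among them Npas2 (2.44), Nfil3 (1.53), Bhlhe40 (1.24) and Rora (1.11). The 13 others were not called. From fibrosis to cirrhosis 5 were higher and 4 lower, beside 34.3% and 29.5% of all genes. Bhlhe40 rose by 3.57 and Npas2 by 2.53, while Btrc fell by 2.00 and Hlf, a relative of Dbp, by 2.22. Hlf too was low, with a mean of 2.72 CPM in fibrosis and 0.58 CPM in cirrhosis. Against acute injury, cirrhosis had 5 higher and 3 lower, beside 37.5% and 31.8% of all genes.

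Of 5 clock output genes, 2 were higher and 2 lower in acute injury, where 35.5% of all genes were higher and 37.9% lower. Wee1, a cell cycle kinase gene, rose by 2.68, from a mean of 13.7 to 85.2 CPM, and Noct, a phosphatase gene with a strong daily rhythm in liver, fell by 1.58. In fibrosis 2 were higher and 3 lower, in cirrhosis 2 were higher and 1 lower, and in the TAA experiment 1, Usp2, was lower (-0.66, limma-voom adjusted p = 0.0307). Of all genes, 70.2%, 51.8% and 27.6% were called in these comparisons.

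Per1 was set beside lists of genes that answer to the same inputs. Of 14 CREB and immediate-early genes, 11 were lower and 1, Creb1, higher both in acute injury and in fibrosis, with median log2 fold changes of -5.05 and -4.79 beside -0.086 and -0.031 over all genes. In acute injury Fosb fell by 9.83, from 7968 to 15860 CPM in healthy to 4.05 to 32.7 CPM, and Fos fell by 8.38. In cirrhosis 5 were lower and 2 higher, with a median of -0.48, and from fibrosis to cirrhosis 12 were higher and 1, Creb1, lower. In the TAA experiment 12 were higher and none lower, with a median of 1.61. Egr1, for example, was at 6709 to 9072 CPM in the group labelled TAA control and 996 to 3241 CPM in the other. These counts stood beside 37.9%, 34.9% and 24.7% of all genes lower at the 3 stages and 12.7% higher in the TAA experiment. From fibrosis to cirrhosis 34.3% of all genes were higher and 29.5% lower. Per1 had the sign of the list's median in each of these comparisons, but this sign pattern was not particular to the list. A list of lymphocyte markers had medians of -4.63, -2.09 and -0.98 at the 3 stages. Its median was 2.90 from fibrosis to cirrhosis and 4.05 in the TAA experiment, where only 3 of its 8 genes were tested. These markers were low, with a sum of 0.58 to 3.19 CPM in acute libraries. None of the other marker lists had these signs throughout, and the endothelial and macrophage medians in cirrhosis were 0.019 and 0.12. Per2 was called neither in acute injury nor in fibrosis, and fell by 1.42 in the TAA experiment.

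Of 7 glucocorticoid response genes, 5 were lower and 1, Fkbp5, higher in acute injury, where 37.9% of all genes were lower and 35.5% higher. Zbtb16 fell by 6.20, from a mean of 18.9 to 0.24 CPM, Pdk4 by 4.31 and Tsc22d3, also named Gilz, by 3.38. In fibrosis 4 were lower and none higher, beside 34.9% and 35.3% of all genes. In cirrhosis none was lower and 2 were higher, beside 24.7% and 27.1% of all genes. In the TAA experiment 2 were higher, Tsc22d3 and Sgk1, and 3 lower, where 12.7% of all genes were higher and 14.9% lower. The median of the list was -2.38 in acute injury, -2.01 in fibrosis, -0.027 in cirrhosis and -0.39 in the TAA experiment, where Per1 had the opposite sign. Whether these lists and the clock genes share a source of difference was not tested.

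**Figure D5:**
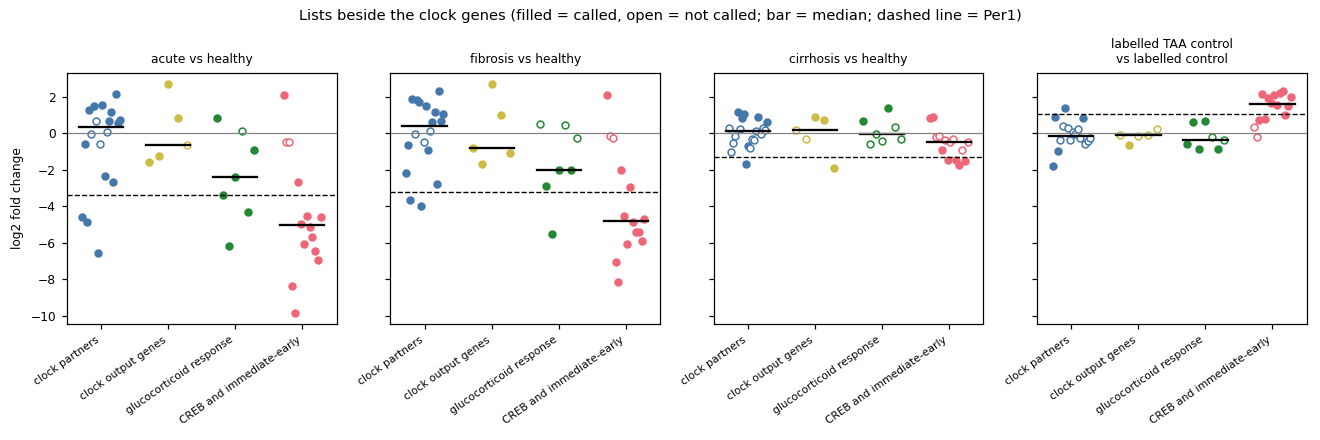
Log2 fold change (y axis) of the genes of 4 lists (x axis) in the 3 comparisons with healthy LSECs and in the TAA experiment. Each point is a gene, filled where it was called, the bar is the list's median over the genes tested, and the dashed line is Per1. The median of the CREB and immediate-early list is -5.05 in acute injury and 1.61 in the TAA experiment, on the same side of 0 as Per1.

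The genes closest to a member over the 22 CCl4 libraries were found among 8542 genes by the root mean square difference of centred log2 CPM. For Per1 these were Calhm2 (0.22), Marc2 (0.24) and Lrp5 (0.24), where the standard deviation of Per1 itself was 1.48. Those for Arntl were Ccng2 (0.30), Mex3b (0.38) and Zfp608 (0.39), beside a standard deviation of 0.62. Phlda1 (0.49), Anxa5 (0.49) and Nfkbia (0.50) were closest to Nr1d1 (0.86), and Ddx41 (0.27), Rab24 (0.27) and Rps16 (0.29) to Dbp (0.37). All members were left out of this search, so it does not show how closely the members follow each other. These differences describe likeness over libraries that share 4 groups.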

How the data were processed

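RNA of LSECs from 32 rat libraries was sequenced, 22 of the CCl4 and 10 of the TAA experiment. Per the labels and the study's methods, the authors made poly(A) libraries with a stranded kit, trimmed reads with Trim Galore, aligned them with STAR (build Rnor_6.0) and estimated gene counts by RSEM, and their versions are not given in the sources used here. The deposited values are expected counts (RSEM's estimated counts per gene), 1 table per library, not normalized. Totals per library were 25646531 to 46464289.

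Expected counts were rounded. Groups were compared by limma-voom after TMM scaling, as in the study's methods, with filterByExpr added, on the libraries of the 2 groups compared and with no covariate (R 4.3.3, limma 3.58.1, edgeR 4.0.16, DESeq2 1.42.0). Adjusted p-values are limma-voom's Benjamini-Hochberg values over all genes tested unless another tool is named, and calls needed an adjusted p under 0.05 and a fold change above 1.5. Levels are TMM-scaled CPM, and differences within a library use log2(CPM + 0.5). Confidence intervals are 95%, are those of the mean log2 fold change and rest on the spread between libraries. Fits were tested on simulated data. Plots came from matplotlib 3.10.9 in Python 3.11.15.

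The members, gene lists and marker lists were chosen with earlier results of these data known. Named genes were the 10 members and up to 4 called genes of a list with the largest change (or a gene a sentence turns on). The 3 non-member genes closest to each of Arntl, Per1, Nr1d1 and Dbp, with a mean log2 CPM of at least 3, were also named. The glucocorticoid list gene Nr3c1 had several rows and was left out, and the endothelial marker Pecam1 had no match. Some genes of the lists are counted but not reported here by name. Promoters came from RefSeq (GRCr8), and no gene coordinates of that build were joined to the counts. Alternatives were edgeR, DESeq2, 1 fit over the CCl4 groups, quality weights, no low-count filter, other scalings, other thresholds, a block for replicate number, and leaving out single libraries.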

Additional observations from a re-analysis of the deposited data

Results flagged for a closer look

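By Dixon's criterion, 7 of 96 sets of values (a gene, or a difference between 2 genes, in 1 group) held a library far from the others, where chance alone flags about 4.8. The gap to the nearest library is given as a share of the range of the group. In healthy LSECs, replicate 6 was low in Per1, at 264 CPM, with a gap of 0.645. Cirrhosis replicate 2 was apart in 3 sets. Its Cry1 level of 13.2 CPM was below the 29.4 to 39.0 CPM of the other libraries (gap 0.736), its Cry1 minus Cry2 was lowest at -2.67 (gap 0.679), and its Nr1d1 minus Nr1d2 was highest at 1.13 (gap 0.626). In fibrosis, replicate 17 was lowest in Nr1d1, at 199 CPM (gap 0.734), and replicate 16 was lowest in Arntl minus Nr1d1, at -3.48 (gap 0.721). In acute injury, replicate 4 was highest in Arntl minus Nr1d1, at -1.43 (gap 0.765), and held the lowest Nr1d1 of its group, 44.1 CPM. No cause was tested for these values.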

How the results depend on the processing

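No called member changed direction under any alternative that was run. On library size alone, values near 0 changed sign for Dbp in acute injury (0.28), Arntl (0.18) and Nr1d1 (0.045) in fibrosis and Arntl in cirrhosis (0.26), all against healthy. With quality weights Arntl in cirrhosis was 0.12. The number of members called from acute injury to fibrosis was 1 with edgeR, 1 with a single fit over the CCl4 groups and 4 with no fold threshold, and from fibrosis to cirrhosis it was 7 with no fold threshold. The causes were not tested. Leaving out each library gave 1 to 3 calls from acute injury to fibrosis, and, against healthy, -0.01 to 0.31 for Per2 and -0.25 to 0.068 for Dbp in acute injury and -0.24 to 0.0799 for Arntl in cirrhosis.

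Healthy, acute and cirrhosis libraries share replicate numbers, but the correlation of deviations of same-numbered libraries was over 0.1 for only 2 of 4 pairs of healthy and acute, 3 of 6 of healthy and cirrhosis and 0 of 4 of acute and cirrhosis libraries, so that the numbers were not taken to pair animals. With the replicate block, 7, 7 and 5 members were called in acute injury against healthy, cirrhosis against healthy and cirrhosis against acute injury, in place of 8, 7 and 4. Per2 in acute injury was -0.054 under that block, and Cry1 there was 0.53, under the fold threshold. No paired analysis was possible for fibrosis and the TAA experiment because their replicate numbers are not shared with the groups compared.

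The hour of isolation is not given in the sources used here and cannot be told apart from stage. All 10 members passed the low-count filter in each comparison, so depth did not limit their detection.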
